A study of Mus musculus with 6 samples.

Results

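The TALE homeobox genes Meis1, Meis2, Meis3, Pbx2, Pbx3, Irx3, Irx5, Tgif1 and Pknox1 were examined in hindlimb buds with and without Pitx1. They were taken by gene symbol, current or former, from the platform annotation. This gave 17 of the 25697 probes, for 9 of the 16593 named genes. Hindlimb buds came from mouse embryos of the strain labelled SV129 at stage E12.5, bred from parents heterozygous for Pitx1 and genotyped by PCR on tail DNA. The 3 wild-type samples carry the genotype PITX1+/+ and the 3 knockout samples PITX1-/-, with no other allele or treatment named in the labels. RNA of each sample was measured on 1 Illumina bead array, in arbitrary intensity units that can lie below 0. Neither pooling of embryos nor the deleted part of Pitx1 is given in the labels, so p-values measure the spread between these samples, which may be technical.

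TALE homeodomain proteins carry extra amino acids in the loop between helices of the homeodomain, and many of them bind DNA together with other homeodomain proteins. Meis and Pbx proteins form complexes with each other and with Hox proteins. In the limb bud, Meis1 and Meis2 mark the proximal part and respond to retinoic acid, and Pbx genes act in limb positioning and patterning. Irx3 and Irx5, of the Iroquois group, are jointly needed for proximal and anterior parts of the mouse hindlimb. Pknox1, also called Prep1, is a Meis-like partner of Pbx proteins, and Tgif1 is a corepressor in TGF-beta and retinoic acid signalling.

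The limit of background was set at 14.3 units, and a probe had to exceed it on 3 or more of the 6 arrays, which left 13715 probes. Of the 17 TALE probes, 15 passed that filter, so that each of the 9 genes had a tested probe. The other 2, 1 for Meis3 and 1 for Pbx3, were below background on all 6 arrays. For a gene with several tested probes, the probe with the highest mean over the 6 arrays stood for it. Log2 fold changes (knockout minus wild type) are on the scale of log2 intensity after background correction with an added offset of 50 units, which understates the change of dim probes. SEs, 95% intervals and p-values come from limma, and adjusted p-values from Benjamini-Hochberg adjustment over all probes tested. With 3 arrays per genotype, the smallest two-sided p of an exact permutation test is 0.1.

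Pitx1 itself, the check of the labels, gave 154.0, 124.5 and 140.2 units in wild type and 78.3, 75.2 and 76.1 in knockout, and fell by 0.51 on the log2 scale (SE 0.09, limma adjusted p = 0.038). Tbx4, the T-box gene of the hindlimb, was above background on all 6 arrays, with 354.4, 305.6 and 403.1 units in wild type and 220.7, 247.9 and 211.5 in knockout. All its knockout arrays lay below the wild-type arrays, and its log2 fold change of -0.51 did not pass (limma adjusted p = 0.076). Tbx5, its forelimb counterpart, was below background on all 6 arrays. Of the 6 limb bud mesenchyme markers with a probe, 5 were tested, with Tbx18 below background. Knockout replicate 3 stood apart on the first principal component (22.3, against -8.9 to 1.4 for the other 5 arrays). Array medians were 17.8 to 17.9 units. The median log2 fold change over all 9535 genes tested was -0.001.

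None of the 9 TALE genes reached the adjusted threshold of 0.05 by limma (0 of 9, where 0.273% of the 9535 genes tested passed). Irx3 and Meis1 were the 2 genes with an unadjusted p under 0.05, and both had the higher mean in knockout. Among all genes tested, 8.50% reached an unadjusted p under 0.05, 3.64% with the higher level in knockout and 4.86% with the lower. The log2 fold changes of the 9 genes ran from -0.21 for Pbx2 to 0.39 for Irx3, with 5 above 0, 4 below 0 and a median of 0.04. Without knockout replicate 3 the genes at an unadjusted p under 0.05 were again 2, both higher, and the median was 0.07.

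**Figure D1:**
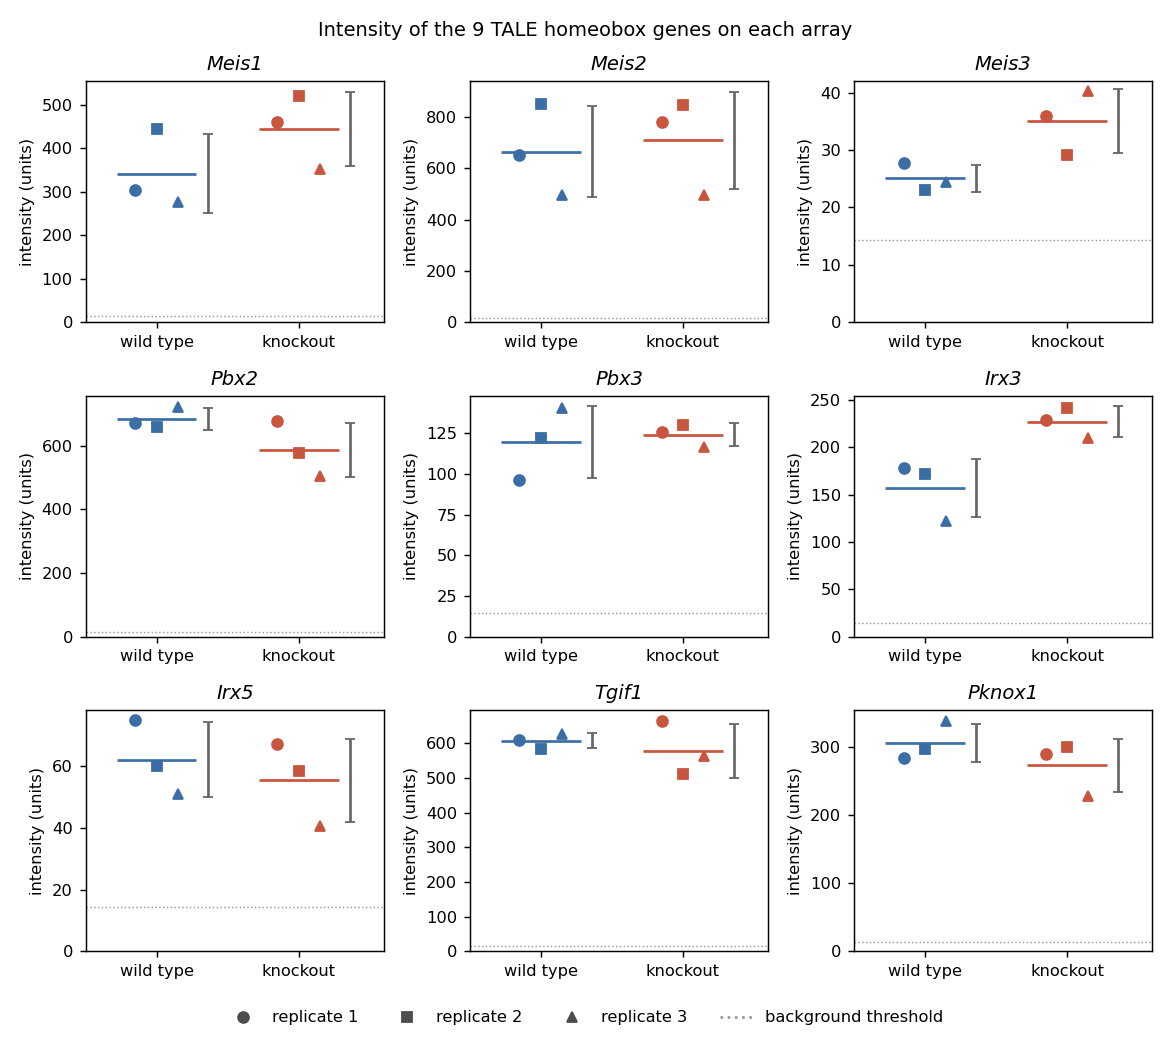
Intensity (units, linear axes from 0) of the probe standing for each of the 9 TALE homeobox genes on the 3 wild-type (blue) and 3 knockout (red) arrays, with the mean of each genotype as a line and its SD as a grey bar. For Irx3 all knockout arrays lie above 209 units and all wild-type arrays below 179, whereas for Meis2 the genotypes cover the same range.

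Irx3 had the smallest p of the 9 genes. Its upstream sequence is shown for that reason and comprises the 250 bases before the annotated start, from RefSeq, at chr8:91801655-91801904 of GRCm38.p6 on the minus strand.
Irx3 promoter: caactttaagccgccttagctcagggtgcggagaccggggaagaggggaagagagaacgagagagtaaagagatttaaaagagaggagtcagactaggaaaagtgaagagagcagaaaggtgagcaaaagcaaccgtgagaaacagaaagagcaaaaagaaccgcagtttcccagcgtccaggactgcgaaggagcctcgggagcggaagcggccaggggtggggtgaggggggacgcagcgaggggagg
No base is in capitals, since no motif searched was found there. Of its bases 56% are G or C. Promoter windows of 250 bases before and 50 after an annotated start were held for 6 of the 9 genes (10 windows, 5 of them of Tgif1), and not for Pbx3, Irx5 and Pknox1. They were searched on both strands for TAATCC, a site bound by Pitx proteins, which 7.06% of all 32851 promoter windows held. TGACAG, bound by Meis and Tgif proteins, stood in 19.2% of windows, and TGATNNAT, a composite site of Pbx and Hox proteins, in 8.85%. The windows of Irx3, Meis1, Meis2, Meis3 and Pbx2 held none of the 3 motifs, and at least 1 window of Tgif1 held each of them. No match says only that these letters are not in this window.

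The Irx3 probe read 178.1, 171.9 and 121.9 units in wild type and 229.2, 242.1 and 209.8 in knockout. All knockout values lay above all wild-type values. Wild-type replicate 3 was the lowest array. Wild-type arrays had a mean of 157.3 ± 30.8 units and knockout arrays one of 227.0 ± 16.2 (SD, n = 3 each). The log2 fold change was 0.39 ± 0.11 (SE), a fold of 1.31 with a 95% interval of 1.12 to 1.54, and it missed the threshold (limma unadjusted p = 0.0030, adjusted p = 0.26). Leaving out each array in turn gave log2 fold changes of 0.27 (without wild-type replicate 3, limma adjusted p = 0.83) to 0.46 (without wild-type replicate 1, adjusted p = 0.46). The lowest adjusted p among these fits was 0.23, without knockout replicate 2.

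Irx5 lies next to Irx3 on chromosome 8 in the RefSeq annotation, in the Iroquois cluster that also holds Irx6. Its probe read 75.2, 60.0 and 51.2 units in wild type and 67.2, 58.5 and 40.8 in knockout. The genotypes overlapped, and within each genotype replicate 1 was the highest and replicate 3 the lowest. The log2 fold change was -0.07 (95% interval -0.30 to 0.15, limma adjusted p = 0.87), and without knockout replicate 3 it was 0.01. The interval of Irx3 (0.16 to 0.62) lay only just above that of Irx5, with nearest ends of 0.157 and 0.153. The difference between the neighbours was not tested. Irx6, the last gene of the cluster, was dim, with 21.7, 26.0 and -1.8 units in wild type and 25.6, 16.6 and 32.6 in knockout, the wild-type replicate 3 value lying below background (log2 fold change 0.16, adjusted p = 0.75, and 0.01 without that array). Fto, an RNA demethylase gene beside Irx3 whose introns hold Irx3 enhancers, read 5272, 4558 and 5249 units in wild type and 4744, 3891 and 3482 in knockout. Knockout replicate 1 overlapped the wild-type range, and the change of -0.32 ± 0.12 (SE, log2 scale) did not pass (limma adjusted p = 0.47).

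The other Iroquois cluster, Irx1, Irx2 and Irx4, lies on chromosome 13, as does Pitx1. Irx1 read 67.2, 60.8 and 52.3 units in wild type and 65.3, 15.6 and 6.6 in knockout. Knockout replicate 1 was within the wild-type range, and knockout replicate 3 was below background. The log2 fold change of -0.42 ± 0.16 (SE) did not pass with all arrays (limma adjusted p = 0.51). It was -0.67 without knockout replicate 1 and then passed (adjusted p = 0.015), but -0.27 without knockout replicate 3 and -0.24 with array weights, both no longer under an unadjusted p of 0.05. With intensities floored at the background limit in place of normexp it was -1.29. Irx2 read 266.6, 305.7 and 240.7 units in wild type and 251.4, 181.5 and 155.8 in knockout, again with knockout replicate 1 inside the wild-type range (log2 fold change -0.37 ± 0.12 SE, adjusted p = 0.43). Irx4 was above background on 1 array and was not tested.

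**Figure D2:**
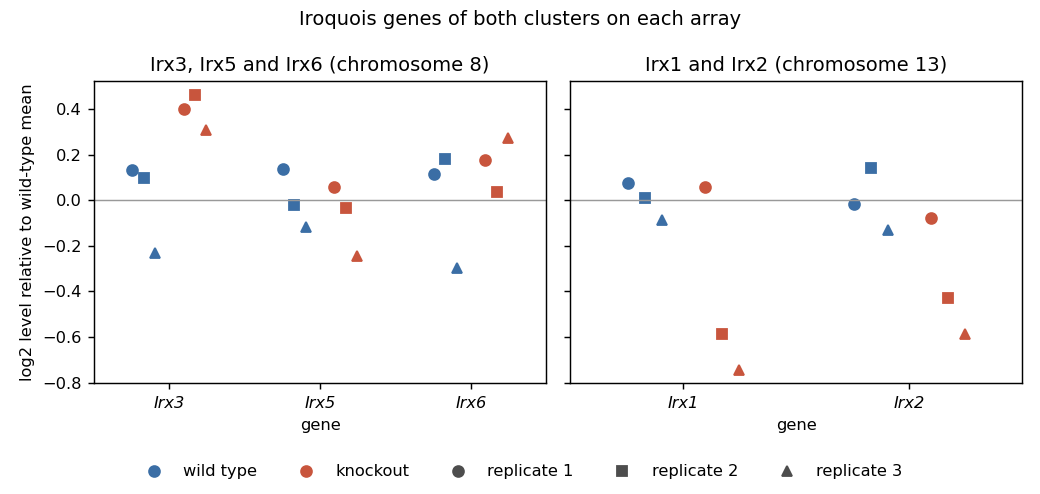
Log2 level of each tested Iroquois gene relative to its wild-type mean, for the cluster on chromosome 8 and that on chromosome 13, with each point an array (blue wild type, red knockout, symbols for replicate numbers). Irx3 lies at 0.31 to 0.46 in knockout, while Irx1 lies at 0.06, -0.59 and -0.74 and Irx2 at -0.08, -0.43 and -0.58.

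Meis1 read 304.2, 444.4 and 275.5 units in wild type and 459.7, 519.8 and 351.8 in knockout. The highest wild-type array lay above the lowest knockout array, so the genotypes overlapped. Wild-type arrays had a mean of 341.4 ± 90.4 units and knockout arrays one of 443.8 ± 85.1 (SD, n = 3 each), and the difference of 0.33 ± 0.15 (SE, log2 scale) did not pass (limma unadjusted p = 0.045, adjusted p = 0.62). The 95% interval ran from 0.01 to 0.65. Leaving out wild-type replicate 3 gave 0.21 and leaving out wild-type replicate 2 gave 0.50 (limma adjusted p = 0.94 and 0.44). An unadjusted p under 0.05 remained only without wild-type replicate 2 or knockout replicate 3, and without wild-type replicates 1 and 3 and knockout replicates 1 and 2 it was 0.14, 0.21, 0.10 and 0.19.

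Meis2, the paralog of Meis1 in the proximal limb, read 650.7, 849.6 and 496.5 units in wild type and 783.0, 848.9 and 495.4 in knockout. The highest array of each genotype and the lowest array of each genotype were nearly equal, and replicate 2 was the highest and replicate 3 the lowest in both, as for Meis1. Its spread within a genotype (SD of 177.0 and 188.0 units) was larger than the difference of the means, 665.6 and 709.1 units. The log2 fold change was 0.08 ± 0.18 (SE, limma adjusted p = 0.92), with a 95% interval of -0.31 to 0.47 that does not exclude the change measured for Meis1. Its sign turned without wild-type replicate 3 (-0.09), without knockout replicate 2 (-0.05) and, at -0.001, without knockout replicate 1.

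Meis3, the third Meis gene, lay near the background limit. Its tested probe read 27.7, 23.1 and 24.5 units in wild type and 35.9, 29.1 and 40.3 in knockout. All knockout arrays lay above all wild-type arrays, although the difference was small in units. The log2 fold change was 0.14 ± 0.09 (SE, limma adjusted p = 0.72), and its size depended on the background step, with 0.47 where intensities were floored at the background limit in place of normexp (unadjusted p = 0.018, adjusted p = 0.59). Irx3 and Meis3 were thus the 2 of 9 genes whose knockout arrays all lay above the wild-type arrays, as 6.50% of all genes tested did. None of the 9 had all knockout arrays below the wild-type arrays, as 7.32% of all genes tested did.

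The Pbx genes, which encode the DNA-binding partners of Meis and Hox proteins, were represented by Pbx2 and Pbx3. The brightest of the 3 Pbx2 probes read 671.5, 658.3 and 721.6 units in wild type and 676.9, 576.6 and 505.4 in knockout. Knockout replicate 3 was the lowest array and knockout replicate 1 lay inside the wild-type range. Its log2 fold change was -0.21 ± 0.11 (SE, limma unadjusted p = 0.070, adjusted p = 0.65), and -0.12 without knockout replicate 3. The other 2 Pbx2 probes gave -0.03 and -0.01 (adjusted p = 0.95 and 0.99), so the lower mean of the brightest probe was not shared by them.

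The brighter Pbx3 probe read 96.1, 122.2 and 140.3 units in wild type and 125.7, 130.1 and 116.5 in knockout. The knockout arrays lay within the wild-type range (log2 fold change 0.04, 95% interval -0.18 to 0.26, limma adjusted p = 0.93). The second tested probe gave 0.09 (adjusted p = 0.83). Without wild-type replicate 1 the brighter probe gave -0.05.

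Pknox1 was read by a pair of tested probes that differed in sign. The brighter read 284.2, 298.3 and 338.5 units in wild type and 290.5, 300.6 and 229.1 in knockout, with knockout replicate 3 the lowest array (log2 fold change -0.14, 95% interval -0.36 to 0.09, limma adjusted p = 0.76). Without that array it was -0.04, and the mean over both probes gave -0.02. The other read 107.6, 112.6 and 115.5 units in wild type and 107.2, 138.6 and 128.6 in knockout (log2 fold change 0.09, 95% interval -0.11 to 0.30, adjusted p = 0.81). Neither probe separated the genotypes. Pknox2, the related gene, gave -0.13 for the probe standing for it (adjusted p = 0.76), while its other tested probes gave -0.04 and 0.18, so that it has no settled direction either.

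Tgif1 was read by 3 tested probes, all with a log2 fold change below 0 and none past the threshold. The brightest read 610.6, 584.5 and 627.9 units in wild type and 662.7, 510.1 and 562.0 in knockout. The knockout values spread to both sides of the wild-type range (log2 fold change -0.07, 95% interval -0.29 to 0.15, limma adjusted p = 0.88), and without knockout replicate 2 it was 0.01. The other probes gave -0.12 and -0.11. Tgif2, its paralog, read 118.4, 95.9 and 117.9 units in wild type and 155.7, 114.4 and 180.8 in knockout. Knockout replicate 2 lay inside the wild-type range, and the log2 fold change of 0.27 ± 0.11 (SE) did not pass (adjusted p = 0.58) and was 0.18 without knockout replicate 3. In the TGF-beta pathway, where both act, limma called 0 of 11 genes tested, and 1 was under 0.05 before adjustment, namely Tgfbr2, the type II receptor (log2 fold change -0.45 ± 0.15 SE, adjusted p = 0.43, and -0.64 with an adjusted p of 0.048 without knockout replicate 1). Without knockout replicate 3, Tgfbr2 was at -0.25 and 0 genes of the list had an unadjusted p under 0.05. Hdac1, a histone deacetylase recruited by Tgif1, gave -0.14 and Tgfb2, a ligand, gave -0.22, which was -0.02 without knockout replicate 3.

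**Figure D3:**
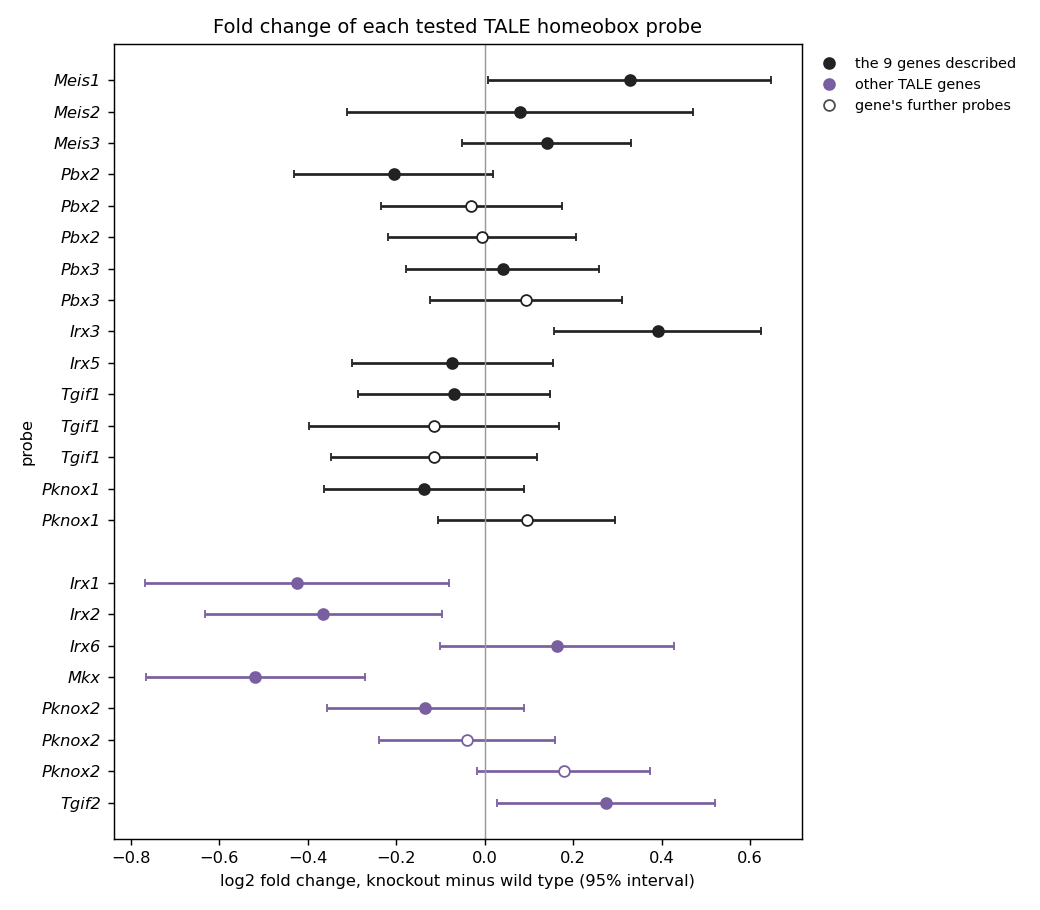
Log2 fold change (knockout minus wild type) with its 95% limma interval for each tested probe of the 9 genes (black) and of the other TALE genes (purple), where filled points stand for a gene and open points are its further probes. The intervals of Irx3, Meis1, Irx1, Irx2, Mkx and Tgif2 leave out 0 before adjustment, and no probe shown passed after it.

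Among the other TALE genes, 6 of 11 listed were tested (Irx1, Irx2, Irx6, Mkx, Pknox2 and Tgif2). limma called 0 of them, and 4 were under 0.05 before adjustment, 3 lower in knockout (Irx1, Irx2 and Mkx) and 1 higher (Tgif2). For this and every other list, the shares over all genes tested were 8.50% before adjustment and 0.273% after it. The median log2 fold change of the 6 genes was -0.25, and -0.15 without knockout replicate 3, with 1 gene then at an unadjusted p under 0.05. Mkx, a TALE factor of tendon, read 266.5, 226.9 and 235.5 units in wild type and 147.3, 185.3 and 115.1 in knockout. All knockout arrays lay below all wild-type arrays. Its change of -0.52 ± 0.11 (SE, log2 scale) did not pass (limma adjusted p = 0.12). It passed with array weights (-0.50, adjusted p = 0.046) and without knockout replicate 2 (-0.63, adjusted p = 0.037).

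Hox proteins and other partners of Pbx and Meis gave 0 calls among 13 genes tested, with 3 higher and 0 lower at an unadjusted p under 0.05 in limma. The 3 were Hoxd9, Hoxd10 and Hoxc10, posterior Hox genes, with log2 fold changes of 0.41, 0.31 and 0.22 (adjusted p = 0.16, 0.42 and 0.61). The second tested probe of Hoxc10 gave 0.15 (limma unadjusted p = 0.18). Pax6, Hoxa11, Hoxb8 and Hoxb9 were not above background on enough arrays to be tested. The list median was 0.07, and 0.02 without knockout replicate 3.

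Genes of the proximal limb segment and of retinoic acid, the signal upstream of Meis1 and Meis2, went both ways. Of 11 tested, limma called 0, and 5 were under 0.05 before adjustment, 3 higher (Shox2, Hoxd9 and Cyp26b1) and 2 lower (Aldh1a2 and Rarb). Hoxd9 is also in the list of Pbx and Meis partners. Without knockout replicate 3, 2 genes were higher and 1 lower at that level. Shox2, a homeobox gene needed for the proximal limb skeleton, read 623.9, 558.4 and 541.7 units in wild type and 866.5, 849.6 and 715.3 in knockout. The genotypes did not overlap, and the change of 0.45 ± 0.10 (SE, log2 scale) did not pass (limma adjusted p = 0.12). It passed with array weights (0.49, adjusted p = 0.033) and without knockout replicate 3 (0.53, adjusted p = 0.046). Its second probe gave 0.40 and its dimmest 0.10.

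Aldh1a2, the retinoic acid synthesis enzyme, read 228.0, 185.0 and 251.5 units in wild type and 159.3, 143.9 and 124.0 in knockout. The genotypes did not overlap (log2 fold change -0.45 ± 0.11 SE, limma adjusted p = 0.16), and its second probe gave -0.44. Cyp26b1, which breaks retinoic acid down, read 120.1, 99.3 and 166.9 units in wild type and 158.8, 153.7 and 274.9 in knockout, with overlapping genotypes (log2 fold change 0.40, limma adjusted p = 0.54). Rarb, a retinoic acid receptor, gave -0.30 (limma adjusted p = 0.59), and its second tested probe gave -0.10 (unadjusted p = 0.47). Cyp26b1 and Rarb were named after their values were seen.

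Distal limb genes gave 0 calls among 13 tested by limma, with 1 higher (Lhx2, a distal mesenchyme factor, 0.25) and 1 lower (Tfap2b, an AP-2 factor, -0.28) at an unadjusted p under 0.05, and Msx2, a homeobox gene, gave 0.29 (0.17 without knockout replicate 3 and 0.52 without knockout replicate 2). The further tested probes of Tfap2b gave -0.01, -0.07 and -0.13 (limma unadjusted p = 0.92, 0.53 and 0.18), so they did not share the lower value of the brightest. The medians of the proximal and distal lists were 0.08 and 0.06, and 0.04 and 0.01 without knockout replicate 3. Without that array 0 distal genes had an unadjusted p under 0.05. Patterning genes that depend on Pbx or Irx genes, or that lie beside Irx3, gave 0 calls among 13 tested, with Fto the 1 gene at an unadjusted p under 0.05. Without knockout replicate 3, 0 genes of the list were under it, and the list median turned from 0.09 to -0.02. Grem1, a BMP antagonist, and Tbx2, a T-box factor, had the next smallest p, with log2 fold changes of 0.19 and 0.18 (limma adjusted p = 0.66 and 0.72), and Tbx2 was at 0.06 without knockout replicate 3 and at 0.30 without knockout replicate 1.

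**Figure D4:**
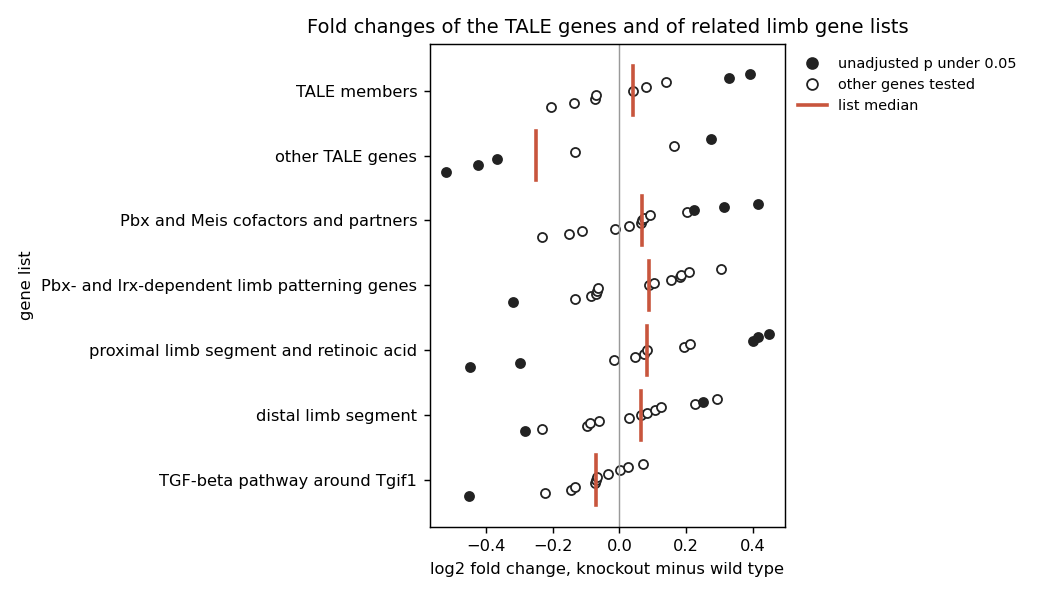
Log2 fold change (knockout minus wild type) of each tested gene in the 9 TALE genes and in 6 related lists, with genes at an unadjusted p under 0.05 filled and the list median as a red line. The 9 TALE genes have a median of 0.04, the other TALE genes of -0.25, and no gene shown passed after adjustment.

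The 5 genes whose log2 level over the 6 arrays was most like that of Irx3, among 9534 other genes, were Sp4, Kpna2, Ahrr, Rgs10 and Id2 (Pearson correlations of 0.98 to 1.00 and Spearman correlations of 0.89 to 0.94, as a description without a test). The 6 arrays include the genotype split itself, and 59 genes had a correlation over 0.9. None of the 5 passed (log2 fold changes of 0.12 to 0.31, limma adjusted p of 0.42 to 0.74). Sp4 was below background on all 3 wild-type arrays (11.9, 11.8 and 5.6 units). It met the filter through the knockout arrays alone (16.5, 18.7 and 15.9 units), so its likeness rests on values near the background limit. Ahrr was also dim, and below background on wild-type replicate 3 (13.7 units).

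Some markers of other cell types moved with genotype. The summed intensity of the 9 skeletal muscle markers tested was 11021 to 14525 units in wild type and 1521 to 5820 in knockout, lowest in knockout replicate 3, with 7 of the 9 lower after adjustment (Actn2, Acta1 and Myl4 first, at -1.32, -1.91 and -2.05). The 7 erythroid markers summed to 142486 to 148052 units in wild type and 147191 to 159739 in knockout, with 1 higher after adjustment (Nfe2) and 5 higher at an unadjusted p under 0.05. These sums overlapped, with knockout replicate 1 below wild-type replicate 3. Hba-a1 and Hbb-y, the brightest of the 7, gave log2 fold changes of -0.06 and 0.02. They read 53730 to 58259 and 58725 to 61593 units, and so made up most of each sum. For 5 of the 7 markers all knockout arrays lay above all wild-type arrays, as for 6.50% of all genes tested. Hbb-bh1 was among them (0.54, limma adjusted p = 0.18). The 6 cartilage markers summed to 2852 to 4365 units in wild type and 1544 to 2823 in knockout, with 1 lower after adjustment (Matn4). The sum of knockout replicate 1 (2823 units) was close to that of wild-type replicate 2 (2852 units). At an unadjusted p under 0.05, 2 of the 6 were lower (Matn4 and Matn1), while Col9a1 and Acan gave 0.03 and -0.02. The cartilage median was -0.33, and -0.11 without knockout replicate 3. With 1 array left out, the highest limma adjusted p was 0.0502 for Actn2, 0.13 for Acta1, 0.14 for Myl4, 0.32 for Nfe2 and 0.13 for Matn4. With intensities floored at the background limit in place of normexp, none of these genes passed (limma adjusted p of 0.31 to 0.48). With an intensity trend and robust prior in limma, Acta1, Myl4 and Matn4 did not pass either (adjusted p = 0.42, 0.46 and 0.46). The 5 limb bud mesenchyme markers summed to 8415 to 8605 units in wild type and 7399 to 8976 in knockout. None passed by limma, and 2 were higher in knockout at an unadjusted p under 0.05, the homeobox genes Prrx1 (0.28, all knockout arrays above the wild-type arrays) and Lhx2 (0.25). Of the 5, 3 had a log2 fold change above 0 and 2 below 0, Twist1 (-0.19) and Msx1 (-0.10). Without knockout replicate 3, 1 of the 5 was under 0.05 before adjustment, and the list median was 0.01 in place of 0.12. The part of these tissues in the TALE values was not tested, and in such bulk samples fewer cells of a type and less RNA per cell cannot be told apart. Neuron (3 tested), endothelium (5), surface ectoderm (6) and flank and body wall markers (4) had 0 genes at an unadjusted p under 0.05 in limma, and macrophage markers had 1 of 3, lower in knockout. Of the 5 Schwann cell and neural crest markers, 1 had a probe and it was not above background.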

How the data were processed

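The deposited value table holds linear intensities of 25697 probes on 6 bead arrays made by Illumina. Trizol extraction gave the RNA, per the labels' protocols, which was treated with DNase I and converted to biotinylated cRNA. Scanner software, background method and normalization are not given in the sources used here. Of the values 27.9% lie below 0, and the sorted columns differ by at most 1.09 units, a pattern that background subtraction and quantile normalization leave, under which a change in total RNA is lost. The other deposited table, of signals before normalization, was set aside, since none of its 12 value columns names a sample.

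Intensities were corrected with normexp (offset 50) and log2 transformed (limma 3.58.1, R 4.3.3), with no further normalization. The background threshold is the root mean square of values below 0 (8.71 units) times the one-sided 95% normal quantile. Genotype was the only term in lmFit and eBayes, tested two-sided at 0.05 after Benjamini-Hochberg adjustment over 13715 probes. The fit was tested on simulated data. Precision is limited by having 3 arrays per genotype. Symbols came from GEO's platform annotation, updated by Entrez identifier to GRCm38.p6, where 23978 probes have 1 symbol, 0 several and 1719 none, and 23962 matched. The files name no genome build, so chromosomes, gene neighbours and the coordinates of the printed Irx3 window are those of RefSeq on GRCm38.p6, and no probe position is given.

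The genes and lists were chosen with earlier results of these data known. The rule for named genes takes every probe of the 9 genes, every other tested TALE gene, the 3 genes of smallest unadjusted p in each related list, Pitx1 and the 5 genes most like Irx3. Marker genes are named where their list moved with genotype or checks the tissue. The numbers shared by replicates have no meaning in the labels, so same-numbered arrays were not treated as pairs in the main fit. Their deviations correlated at 0.23, 0.17 and -0.07, which does not decide whether they are pairs. Alternatives covered the background step, offset, normalization, filter, replicate block, the mean of a gene's probes, array weights, the variance model and leaving out single arrays. Plots used matplotlib 3.10.9.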

Additional observations from a re-analysis of the deposited data

How the results depend on the processing

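None of the 9 TALE genes passed the adjusted threshold in limma under any alternative run, including each of the 6 arrays left out (0 in every case), while 1 to 2 had an unadjusted p under 0.05. That number was 2 with all arrays and 1 with a normexp offset of 16 and 1 with an offset of 100, the gene no longer counted being Meis1. With the floor described next the 2 were Irx3 and Meis3, and without knockout replicate 1 they were Irx3 and Pbx2 (lower). With 1 array left out it was 1 to 2. The number of all probes past the threshold, 30 with all arrays (1103 at an unadjusted p under 0.05), was 0 with intensities floored at the background threshold in place of normexp (951 at an unadjusted p under 0.05), 8 and 4 with offsets of 16 and 100, and 84 with a replicate block. With 1 array left out it was 0 to 91. The replicate block moved no TALE gene past the threshold, with Irx3 at an adjusted p of 0.11 and Meis1 at 0.24, and with it Mkx, Shox2 and Tbx4 reached 0.047, 0.048 and 0.048. Array weights took Mkx and Shox2 to 0.046 and 0.033. Arrays numbered 1 and 2, but not 3, correlated best with the array of their own number in the other genotype, and the labels give the numbers no meaning. Under the alternatives other than leaving out an array, 157 of 159 log2 fold changes of the 15 TALE probes kept their direction. The exceptions were the brightest Tgif1 probe (0.00075) and the dimmest Pbx2 probe (0.033) with array weights, and of the other genes Pknox2 with the mean over its probes (0.0012). With 1 array left out 79 of 90 kept it, and the probes that turned ranged from -0.094 to 0.29 (Meis2), -0.050 to 0.12 (Pbx3), -0.14 to 0.011 (Irx5), -0.16 to 0.0067 (brightest Tgif1 probe), -0.22 to 0.038 (second Tgif1 probe), -0.080 to 0.048 (dimmest Pbx2 probe) and -0.092 to 0.035 (second Pbx2 probe). The cause was not tested. Irx3 ranged from 0.27 to 0.55 over all alternatives (limma adjusted p of 0.11 to 0.83) and Meis1 from 0.21 to 0.50 (0.24 to 0.94). The Pitx1 call was lost with the floor, with either other offset and without any single array except knockout replicate 1 (adjusted p of 0.063 to 0.30 over these). Depth is unknown for these arrays, and probes near 14.3 units, such as Meis3 and Irx6, have the least signal over background.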
